A study of Mus musculus with 8 samples.

Results

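The genes described here encode the proteins that fuse transport vesicles with their target membranes, and were followed in Neuro2A (N2A) cells that received HU210 or its vehicle. They were chosen by symbol alone and comprise the syntaxins and the other SNAREs of the ER, Golgi, endosomes and plasma membrane, the VAMP and SNAP-25 families, the Sec1/Munc18 and syntaxin-binding proteins, NSF with its SNAP adaptors, and the synaptotagmins. The rule found 61 of the 16974 genes in the table. Of these, 59 were listed at all 4 time points and 52 had a mean level of at least 1 FPKM over the libraries, against 11311 of all genes. FPKM counts sequenced fragments relative to transcript length and library size, so that levels of different genes can be compared per length.

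N2A cells derive from a mouse neuroblastoma, and the synthetic cannabinoid HU210 activates the cannabinoid 1 receptor. All cells were kept for 16 h in medium without serum, then given 2 µM HU210 or DMSO without drug and harvested 2, 4, 6 and 8 h later for sequencing of mRNA. Each of the 8 conditions was 1 library, in which the mRNA of several independent experiments was pooled, so no difference within a time point had a replicate check or an error. All values refer to a single cell line and to mRNA, and in bulk RNA fewer cells with an mRNA and less of it per cell cannot be told apart. The methods describe similar read totals for the 8 libraries, but reads per gene were not analysed here, so the values carry no counting error. Between 11328 and 11444 genes had at least 1 FPKM in a library. Of 15 marker genes of neuroblastoma and sympathetic neurons, 11 were listed at all 4 time points, each with a mean of at least 1 FPKM, and their summed level was 435 to 582 FPKM with HU210 and 479 to 559 FPKM with DMSO. Summed markers of glia reached 6.94 FPKM at most, and those of fibroblasts, immune cells and endothelium stayed at or under 1.45 FPKM. The neurofilament genes Nefl and Nefm, on the same neuronal list, were under 0.01 FPKM where listed.

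SNAREs are membrane-anchored or membrane-bound proteins that pair across 2 membranes. A parallel bundle of helices forms from Q-SNAREs, such as the syntaxins and SNAP-25, and an R-SNARE, such as a VAMP, and its zippering pulls the membranes together. Sec1/Munc18 proteins clasp syntaxins and the growing bundle. The ATPase NSF, recruited by the SNAP adaptors, takes spent bundles apart for reuse. Synaptotagmins carry paired C2 domains, which in several family members bind calcium and couple fusion to it. In neurons this machinery releases transmitter, and it also delivers the membrane by which a neurite grows. Different sets of SNAREs serve different compartments. On late endosomes the Q-SNAREs Stx7, Stx8 and Vti1b pair with the R-SNARE Vamp8.

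Because the mRNAs of this late endosomal set gave several of the largest differences described below, with Vamp8 opposite to the rest, the promoters of its 4 genes are shown. They are RefSeq windows on GRCm38.p6, running 5′ to 3′ on the strand of the gene around the start of a transcript, 300 bases each, and are separate from the gene positions given elsewhere, which are on mm9. Stx7 has 2 windows in the table, of which the first is given (chr10:24149039-24149338, plus strand). The others are Stx8 (chr11:67966208-67966507, plus strand), Vti1b (chr12:79172409-79172708, minus strand) and Vamp8 (chr6:72390618-72390917, minus strand). Capitals mark matches, on either strand, to any of the motifs searched.
Stx7: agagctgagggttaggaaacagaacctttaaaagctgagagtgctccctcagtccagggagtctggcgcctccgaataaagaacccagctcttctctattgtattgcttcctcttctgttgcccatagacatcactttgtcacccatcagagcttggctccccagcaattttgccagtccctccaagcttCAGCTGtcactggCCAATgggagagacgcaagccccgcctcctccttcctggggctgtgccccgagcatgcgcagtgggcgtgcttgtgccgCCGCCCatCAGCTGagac
Stx8: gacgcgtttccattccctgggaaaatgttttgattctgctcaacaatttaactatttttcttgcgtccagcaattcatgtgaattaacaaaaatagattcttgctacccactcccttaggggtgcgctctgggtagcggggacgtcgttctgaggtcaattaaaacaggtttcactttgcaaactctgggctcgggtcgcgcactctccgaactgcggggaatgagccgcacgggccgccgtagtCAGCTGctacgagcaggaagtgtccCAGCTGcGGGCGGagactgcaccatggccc
Vti1b: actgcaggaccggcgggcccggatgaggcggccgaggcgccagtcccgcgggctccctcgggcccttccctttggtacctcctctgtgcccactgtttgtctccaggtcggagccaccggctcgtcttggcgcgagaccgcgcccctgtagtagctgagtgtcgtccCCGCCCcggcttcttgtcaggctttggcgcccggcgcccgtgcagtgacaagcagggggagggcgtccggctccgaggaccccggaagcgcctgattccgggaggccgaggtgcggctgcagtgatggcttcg
Vamp8: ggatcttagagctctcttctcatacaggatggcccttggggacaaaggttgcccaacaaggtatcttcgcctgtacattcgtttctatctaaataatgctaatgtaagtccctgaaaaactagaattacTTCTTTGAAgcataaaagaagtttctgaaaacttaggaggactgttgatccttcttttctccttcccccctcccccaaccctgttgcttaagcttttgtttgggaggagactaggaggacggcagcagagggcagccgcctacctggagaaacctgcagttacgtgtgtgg

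The motifs were the CRE (TGACGTCA) and its core TGACG, which overlap, the AP-1 site (TGAGTCA), the E-boxes CACGTG and CAGCTG, the Egr1 site (GCGTGGGCG), the Stat site (TTCNNNGAA), the CCAAT box (CCAAT) and the GC box (GGGCGG). The windows of Stx7 and Stx8 each held a pair of CAGCTG matches and a GC box, and that of Stx7 a CCAAT box as well. The Vti1b window held 1 GC box and the Vamp8 window 1 match to the Stat site. Over 27025 promoters of the same length, 16.1% held CAGCTG, 35.9% the GC box, 37.9% the CCAAT box and 8.47% the Stat site. The CRE was in 1.88% of them, its core in 21.0%, the AP-1 site in 5.17%, CACGTG in 7.24% and the Egr1 site in 0.625%, and the letters of these 5 were in none of the 4 windows. Among the 41 tested members with a window, 29 held a GC box (70.7%), 15 the CRE core (36.6%), 10 CACGTG and 10 CAGCTG (24.4% each). The G and C content was 56.7% in the Stx7 window, 53.0% in Stx8, 71.0% in Vti1b and 46.7% in Vamp8, against a median of 52.7% over all promoters and 61.3% over the 41 members with a window. A match is a run of letters and no evidence of binding.

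The members were expressed at levels that differed far more between genes than between libraries. Among plasma membrane syntaxins, which supply a Q-SNARE to exocytic bundles, Stx1a, the syntaxin of synaptic release, had the highest mean level (ENSMUSG00000007207, chromosome 5 from 135499352 to 135526970). It was at 17.0, 19.2, 19.2 and 17.5 FPKM with HU210 and 17.4, 14.7, 18.4 and 18.0 FPKM with DMSO at 2, 4, 6 and 8 h. The ubiquitous Stx4a and Stx2 had means of 16.7 and 15.4 FPKM, and the ranges of these 3 syntaxins over the 8 libraries overlapped. Stx11 averaged 2.58 FPKM, while Stx3 lay between 0.489 and 0.748 FPKM and Stx19 did not exceed 0.0671 FPKM.

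Snap25, the partner of Stx1a at the synapse (ENSMUSG00000027273, chromosome 2 from 136539189 to 136608164), was at 47.9, 42.0, 49.8 and 49.4 FPKM with HU210 and 48.0, 48.2, 41.5 and 49.5 FPKM with DMSO at 2, 4, 6 and 8 h. In every library Snap47, a family member without a palmitoylated anchor, followed with a mean of 35.2 FPKM. The ubiquitous Snap23, with a mean of 9.36 FPKM, was the lowest of the 3 listed at all 4 time points. Snap29 was listed at 4 h alone, with 3.89 FPKM with HU210 and 5.89 FPKM with DMSO.

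VAMP levels and sums here cover only the genes listed at all 4 time points. Among these R-SNAREs, Vamp3 (cellubrevin, the VAMP of recycling endosomes) exceeded all others (ENSMUSG00000028955, chromosome 4 from 150421409 to 150432072). Its level was 69.7, 74.8, 70.5 and 69.4 FPKM with HU210 and 77.4, 77.2, 61.8 and 66.3 FPKM with DMSO at 2, 4, 6 and 8 h, and its mean made up 59.6% of the summed VAMP family. Vamp2, the synaptic VAMP, and Vamp4, of the trans-Golgi network, had nearly equal means of 18.3 and 18.2 FPKM, and their ranges overlapped. Vamp8 averaged 10.6 FPKM and Vamp5 0.940 FPKM, under the limit for testing. Thus, of the genes listed at all 4 times, Snap25 and Vamp3, and not Vamp2, were the most abundant of their families in every library.

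The 4 leading synaptotagmins had overlapping ranges, although Syt4 was above Syt1 within each of the 8 libraries. Syt6 had the highest mean (ENSMUSG00000027849, chromosome 3 from 103379154 to 103449490) with 29.8, 29.9, 36.6 and 33.2 FPKM with HU210 and 31.1, 36.0, 31.0 and 32.0 FPKM with DMSO at 2, 4, 6 and 8 h. Syt11, a member that does not bind calcium, averaged 31.3 FPKM, Syt4 30.1 FPKM and Syt1, the calcium sensor of fast transmitter release, 27.0 FPKM. A step of 3.34-fold separated the mean of Syt1 from that of the next gene, Syt14, at 8.07 FPKM, with no overlap of the ranges. Syt5 and the high-affinity sensor Syt7 averaged 7.96 and 6.40 FPKM, and Syt17 2.60 FPKM. Syt2, Syt3, Syt9 and Syt12 lay at or under 0.402 FPKM in every library, and Syt8 was listed at 6 h alone, at 0 in both libraries.

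In the secretory pathway inside the cell, Ykt6, an R-SNARE held to membranes by lipids (ENSMUSG00000002741, chromosome 11 from 5855696 to 5867783), had the highest mean of the ER and Golgi SNAREs with 48.5, 55.2, 49.9 and 48.1 FPKM with HU210 and 53.2, 46.8, 49.5 and 48.2 FPKM with DMSO at 2, 4, 6 and 8 h. The Golgi Q-SNARE Gosr2 followed in each library, with a mean of 40.9 FPKM, ahead of Bet1 and Sec22b at 24.2 and 23.8 FPKM. Of the SNAREs of endosomes and the trans-Golgi network, Stx16 led (ENSMUSG00000027522, chromosome 2 from 173901809 to 173925272), at 34.1, 32.2, 33.3 and 34.9 FPKM with HU210 and 31.9, 32.6, 31.0 and 30.9 FPKM with DMSO at 2, 4, 6 and 8 h. Stx12 averaged 29.3 FPKM and Vti1b 27.1 FPKM, and the range of Stx12 overlapped with those of both Stx16 and Vti1b. Stx6 averaged 16.3 FPKM, Stx8 11.7 FPKM, Stx7 8.15 FPKM and Vti1a 4.19 FPKM.

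Of the Sec1/Munc18 genes, the lysosomal Vps33a and the ER-to-Golgi protein Scfd1 had overlapping ranges and means of 21.5 and 20.1 FPKM, ahead of Stxbp2 (10.2 FPKM), Stxbp3 (7.88 FPKM), Scfd2 (7.51 FPKM), Vps33b (7.28 FPKM) and Vps45 (6.02 FPKM). Of the other syntaxin-binding proteins, Stxbp5 (tomosyn, ENSMUSG00000019790, chromosome 10 from 9475345 to 9620877) stood at 15.2, 15.4, 18.5 and 18.7 FPKM with HU210 and 15.9, 19.6, 17.2 and 17.8 FPKM with DMSO at 2, 4, 6 and 8 h, and Stxbp4 averaged 3.63 FPKM. Napa, the general SNAP adaptor (ENSMUSG00000006024, chromosome 7 from 16683807 to 16703324), was at 53.0, 52.4, 43.3 and 43.2 FPKM with HU210 and 52.8, 40.1, 45.2 and 41.9 FPKM with DMSO at 2, 4, 6 and 8 h. The ATPase Nsf averaged 38.5 FPKM, Napg 16.9 FPKM and the brain-enriched Napb 5.24 FPKM.

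Summed over all 59 members the level ran from 944 FPKM (DMSO, 6 h) to 1030 FPKM (DMSO, 4 h), a 1.09-fold range. The difference between the highest and the lowest library of a member had a median of 0.36 on the log2 scale, against 0.42 over all 11311 tested genes.

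**Figure D1:**
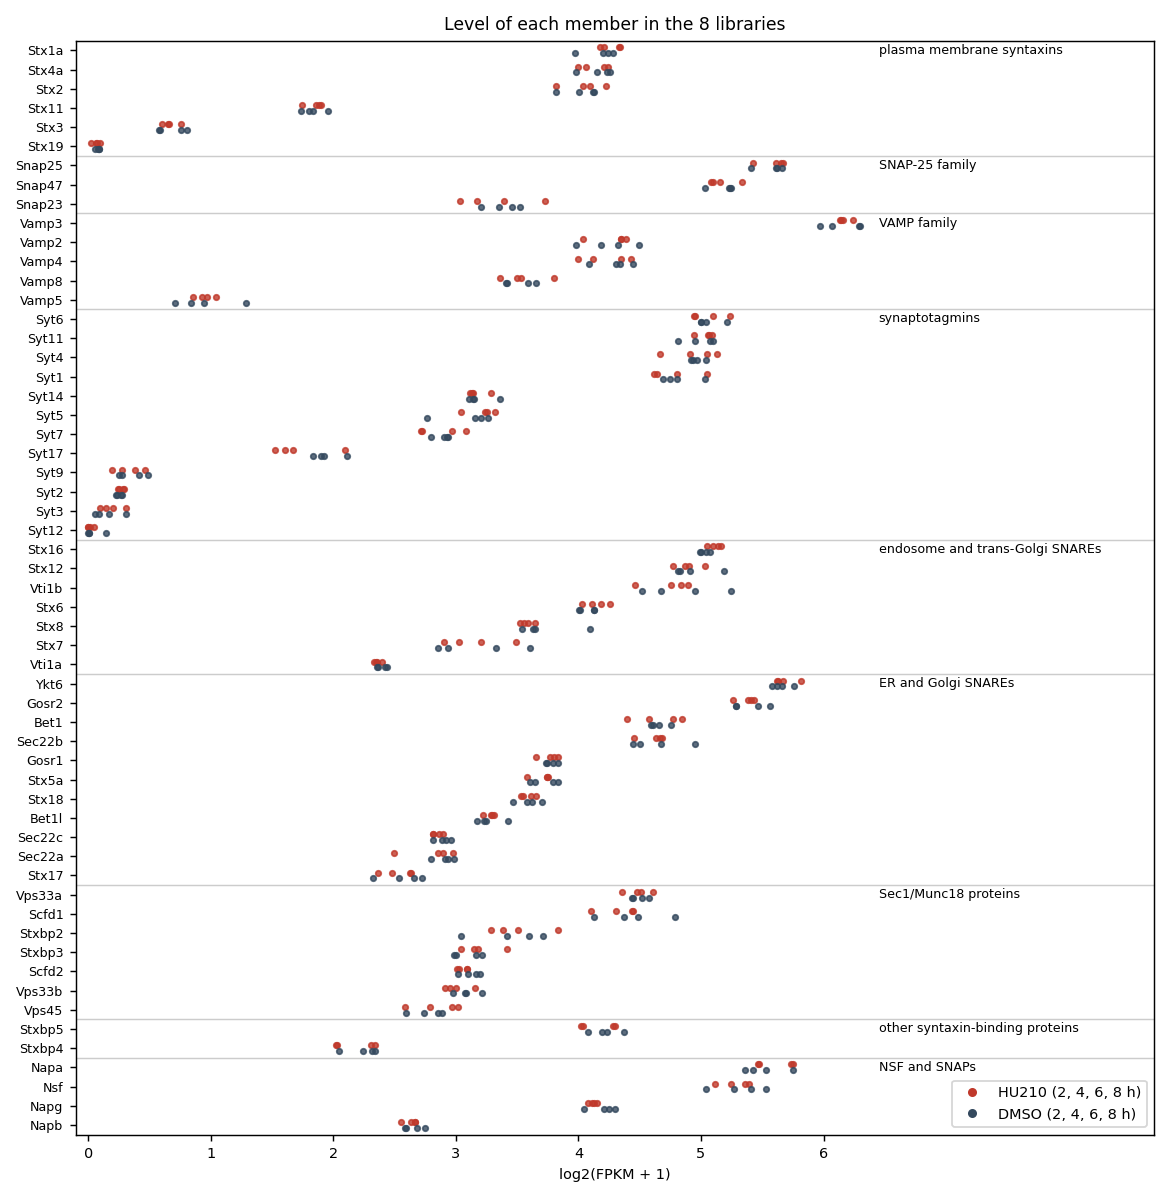
Level of 57 of the 59 members listed at all 4 time points. The horizontal axis is log2(FPKM + 1), each point is 1 library (red HU210, dark DMSO, 4 time points each), and lines separate the groups. Vamp3 stood apart from the other VAMPs and the leading 4 synaptotagmins lay together, while the HU210 and DMSO points of a gene mostly overlapped.

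The effect of HU210 was taken at each time point as the log2 of (FPKM with HU210 + 1)/(FPKM with DMSO + 1), a scale on which changes of weakly expressed genes come out too small. A gene was counted as higher or lower when this ratio reached 1.3-fold, a log2 change of 0.3785. At 2 h none of the 52 members passed in either direction, where 1.49% of all tested genes were higher and 3.91% lower. At 4 h 3 members were higher and 9 lower, beside 8.96% and 19.9% of all genes. At 6 h 1 member was higher and 0 lower, beside 6.38% and 1.72%. At 8 h 2 were higher and 0 lower, beside 4.38% and 1.44%. Each share of members was below that of all genes, but the counts are small, some shares were close, and the difference was not tested. The members and all genes both had the most calls at 4 h. With each library centred on its median, 6 members were higher and 5 lower at 4 h, beside 14.7% and 13.3% of all genes, 1 and 1 at 6 h, beside 3.56% and 3.12%, and 0 and 1 at 8 h, beside 2.76% and 2.11%.

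The members had median log2 changes of -0.053, -0.079, 0.059 and 0.054 in order of time, and all tested genes had medians of -0.051, -0.081, 0.062 and 0.044. Positive changes were seen in 13, 19, 33 and 30 of 52 members at the successive times (25%, 36.5%, 63.5% and 57.7%). Over all tested genes the shares were 36.0%, 40.9%, 65.6% and 62.5%. No member had the same sign at all 4 time points, whereas 897 of 11311 genes (7.93%) did. A negative change at 4 h was followed by a positive one at 6 h in 28 of 52 members (53.8%), beside 47.9% of all genes, and the opposite order was seen in 14 (26.9%), beside 23.2%.

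**Figure D2:**
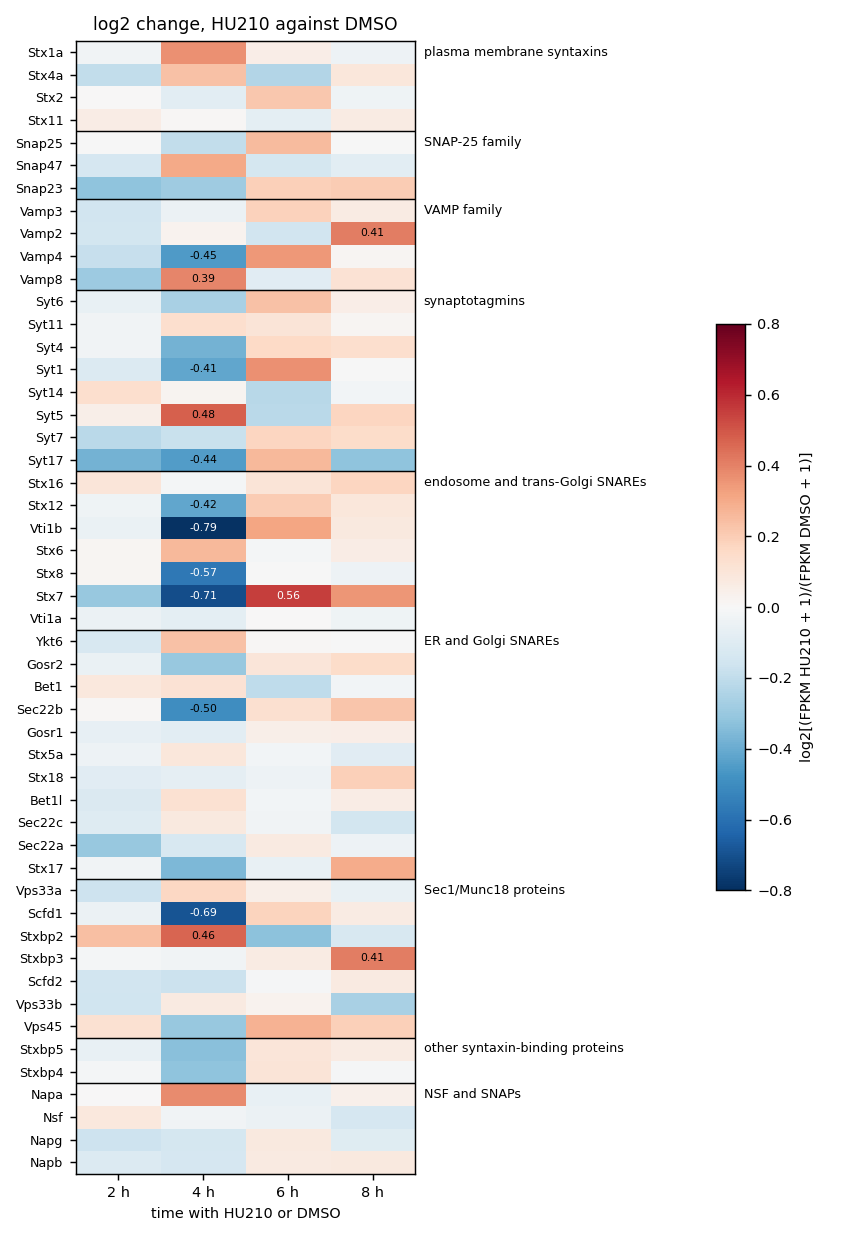
Log2 change of 50 of the 52 tested members at each time point. Columns are time points, rows are genes grouped by role and ordered by level, the colour is the log2 ratio of FPKM + 1 between HU210 and DMSO, and values are written where they reached 1.3-fold. The written values gather in the 4 h column, with 9 negative and 3 positive, and only Stx7 has them at more than 1 time point.

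By median, the endosome and trans-Golgi SNAREs moved the most of the groups at 4 h. Of their 7 tested members 4 were lower with HU210 by at least 1.3-fold, beside 19.9% of all genes. Their median log2 change was -0.42, and their summed level was 119 FPKM with HU210 and 152 FPKM with DMSO. The log2 change of that sum, -0.35, was close to the -0.34 of the other syntaxin-binding proteins. With the trend on base composition and length removed (described below), Vti1b, Stx8 and Stx7 stayed past 1.3-fold. Stx12 was then at -0.14, and Vti1a, Stx16 and Stx6 at 0.088, 0.19 and 0.21. With averaged DMSO levels as the reference, only Vti1b of the group passed. Vti1b (ENSMUSG00000021124, chromosome 12 from 80257004 to 80273654) was at 28.8, 21.0, 27.6 and 25.9 FPKM with HU210 and 29.9, 37.0, 22.0 and 24.6 FPKM with DMSO at 2, 4, 6 and 8 h. The DMSO library at 4 h was its highest and the HU210 library at 4 h its lowest of the 8, and the log2 change between them was -0.79. At the other times its changes were -0.055, 0.31 and 0.075. Of the exon bases of Vti1b 17.7% are shared with Arg2 on the opposite strand, and Arg2 was listed at no more than 0.158 FPKM in any library. A further 7.57% are shared with the pseudogene Gm17195 on the same strand, where reads could be split.

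Stx7 (ENSMUSG00000019998, chromosome 10 from 23869123 to 23908765), the syntaxin of late endosomes, was at 7.14, 6.46, 10.3 and 8.24 FPKM with HU210 and 9.04, 11.2, 6.66 and 6.22 FPKM with DMSO at 2, 4, 6 and 8 h. HU210 was below DMSO at 2 and 4 h and above it at 6 and 8 h, with log2 changes of -0.30, -0.71, 0.56 and 0.36, and it was the only member past 1.3-fold at more than 1 time point. The levels with HU210 and with DMSO overlapped over the time course, between 6.46 and 10.3 FPKM and between 6.22 and 11.2 FPKM. The 6 h HU210 value lay within the range of the 6 libraries of the other times, so the 6 h difference joins a high HU210 value with a low DMSO value, neither of them outside that range.

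Stx8, the third Q-SNARE of the late endosomal bundle (ENSMUSG00000020903, chromosome 11 from 67779695 to 68020650), is described in full, as are Vamp8 and Stxbp2, although these 3 were chosen after their values were seen. It was at 10.7, 10.5, 11.5 and 11.0 FPKM with HU210 and 10.6, 16.1, 11.5 and 11.3 FPKM with DMSO at 2, 4, 6 and 8 h. The other 7 libraries lay between 10.5 and 11.5 FPKM, and the DMSO library at 4 h alone was high, so that the log2 change of -0.57 at 4 h rested on the DMSO library. Of the Stx8 exon bases 7.69% are shared with a noncoding transcript on the opposite strand. Stx12, of recycling endosomes, was 26.3 FPKM with HU210 and 35.4 FPKM with DMSO at 4 h, a log2 change of -0.42, and both libraries lay outside the range of the other 6. Stx16, Stx6 and Vti1a did not reach 1.3-fold at any time, with log2 changes between -0.076 and 0.26.

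Vamp8, the R-SNARE partner of this set (ENSMUSG00000050732, chromosome 6 from 72335217 to 72340697), went the other way at 4 h. It was at 9.26, 12.9, 10.3 and 10.6 FPKM with HU210 and 11.6, 9.65, 11.0 and 9.68 FPKM with DMSO at 2, 4, 6 and 8 h. The 4 h HU210 library was the highest of the 8, the 2 h HU210 library was the lowest, and the log2 changes were -0.29, 0.39, -0.089 and 0.12. So at 4 h the 3 Q-SNAREs of the late endosomal bundle were lower and Vamp8 was higher with HU210, each past 1.3-fold. Against the mean of the 4 DMSO libraries only Vti1b of these passed, and Vamp8 was at 0.28. At 2 h all but Stx8 (0.016) were lower with HU210 than with DMSO, short of 1.3-fold.

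**Figure D3:**
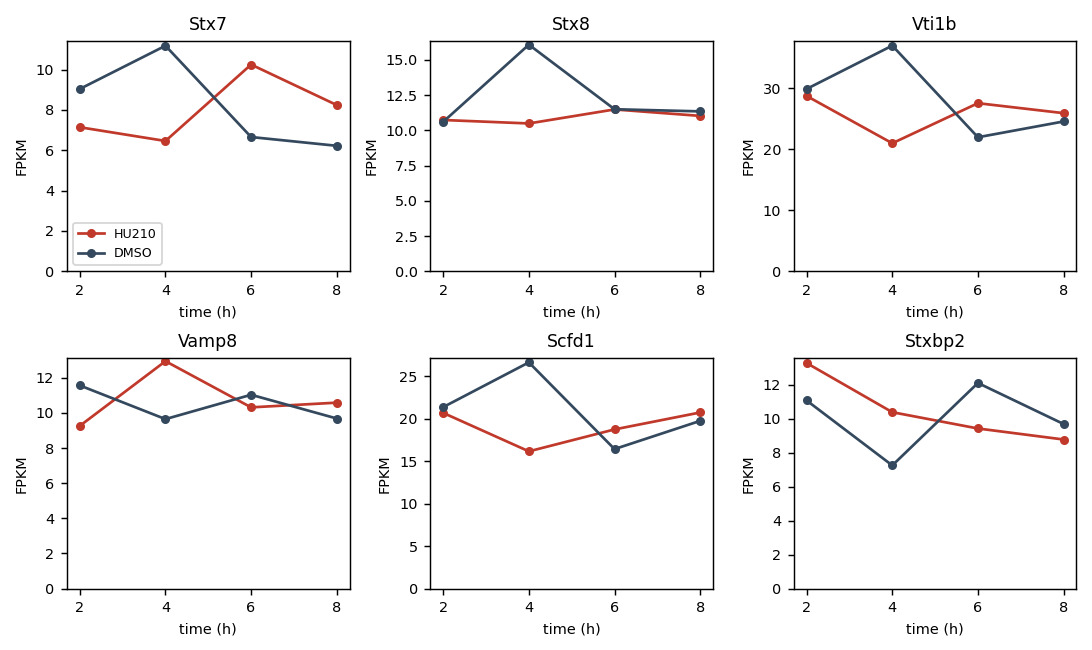
FPKM of the late endosomal SNAREs Stx7, Stx8, Vti1b and Vamp8 and of the Sec1/Munc18 genes Scfd1 and Stxbp2. The horizontal axis is the time in h, the vertical axis is FPKM from 0, and each point is 1 library (red HU210, dark DMSO). In Stx7, Stx8, Vti1b and Scfd1 the DMSO point at 4 h was the highest of the 8, and in Stxbp2 it was the lowest.

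Among Sec1/Munc18 genes Scfd1, which serves the ER-to-Golgi syntaxin Stx5a, had the largest difference (ENSMUSG00000020952, chromosome 12 from 52478567 to 52551083). It was at 20.7, 16.2, 18.8 and 20.7 FPKM with HU210 and 21.4, 26.6, 16.4 and 19.8 FPKM with DMSO at 2, 4, 6 and 8 h. The log2 change at 4 h was -0.69, with the DMSO library the highest and the HU210 library the lowest of the 8, and at the other times it was -0.045, 0.18 and 0.067. Stx5a itself did not pass 1.3-fold at any time and was 12.4 FPKM with HU210 and 11.5 FPKM with DMSO at 4 h. Stxbp2 (Munc18-2, ENSMUSG00000004626, chromosome 8 from 3630955 to 3643644) was at 13.3, 10.4, 9.42 and 8.77 FPKM with HU210 and 11.1, 7.25, 12.1 and 9.68 FPKM with DMSO at 2, 4, 6 and 8 h, and its log2 changes in that order were 0.24, 0.46, -0.33 and -0.13. At 4 h the DMSO library was the lowest of the 8, and the HU210 library lay within the range of the others. Stxbp3 (Munc18-3) was 9.67 FPKM with HU210 at 8 h, the highest of its 8 libraries, and 7.03 FPKM with DMSO, a log2 change of 0.41.

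Of the VAMPs, Vamp4 was lower at 4 h, with 14.9 FPKM with HU210 and 20.8 FPKM with DMSO and a log2 change of -0.45, and its log2 change was 0.35 at 6 h. Vamp2 was higher at 8 h, with 20.0 FPKM with HU210 and 14.8 FPKM with DMSO, the lowest of its libraries, a log2 change of 0.41. Vamp3 did not reach 1.3-fold, with log2 changes of -0.15, -0.044, 0.19 and 0.064. The summed VAMP family was 115, 123, 118 and 120 FPKM with HU210 and 130, 127, 107 and 111 FPKM with DMSO at 2, 4, 6 and 8 h. HU210 was below DMSO at 2 and 4 h and above it at 6 and 8 h, by log2 changes of -0.17, -0.047, 0.13 and 0.12, with the HU210 sums inside the range of the DMSO sums.

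**Figure D4:**
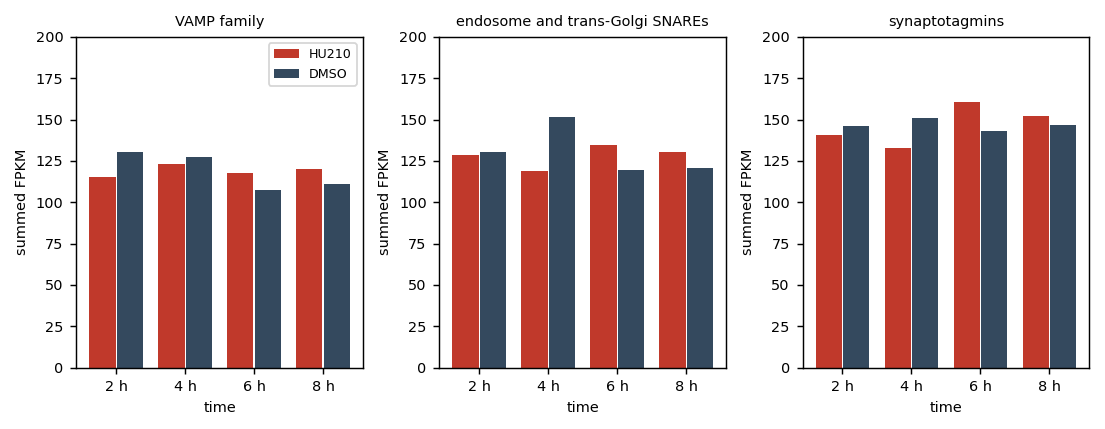
Summed FPKM of the VAMP family, of the endosome and trans-Golgi SNAREs and of the synaptotagmins. Each bar is 1 library (red HU210, dark DMSO) and the vertical axis starts at 0. The largest gap between neighbouring bars is that of the endosomal SNAREs at 4 h, 119 against 152 FPKM.

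Among synaptotagmins Syt1 was lower at 4 h, with 23.6 FPKM with HU210 and 31.7 FPKM with DMSO, a log2 change of -0.41, and at 6 h it was 32.2 FPKM with HU210 and 24.8 FPKM with DMSO, a change of 0.36 that did not reach 1.3-fold. Syt17 was lower at 4 h with a log2 change of -0.44, at 2.18 against 3.32 FPKM, and just missed 1.3-fold at 2 h with -0.378. Syt5 was higher at 4 h, with 8.45 FPKM with HU210 and 5.79 FPKM with DMSO, the lowest of its libraries, a log2 change of 0.48. Syt4 had a log2 change of -0.377 at 4 h, short of 1.3-fold, and Syt6, Syt7, Syt11 and Syt14 did not reach 1.3-fold at any time. Over the 8 tested synaptotagmins the median log2 change was -0.044, -0.22, 0.17 and 0.035 at 2, 4, 6 and 8 h.

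In the ER and Golgi group 1 of 11 members passed 1.3-fold, the R-SNARE Sec22b, with 20.9 FPKM with HU210 and 29.9 FPKM with DMSO at 4 h, a log2 change of -0.50. At that time 19.9% of all genes were lower and 8.96% higher, and the groups were not compared by a test. None of the 5 plasma membrane syntaxins, 3 tested SNAP-25 family genes and 4 genes of NSF and SNAPs passed 1.3-fold. Napa came nearest, with a log2 change of 0.376 at 4 h, and Stx1a had 0.37. The synaptic partners Stx1a and Snap25 did not share a sign at 4 h, with log2 changes of 0.37 and -0.20. With averaged DMSO levels as the reference they were at 0.16 and -0.15. With the trend on base composition and length removed (described below) both were positive, at 0.22 and 0.056.

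Extreme values were unevenly spread over the libraries. The DMSO library at 4 h held the highest value of 14 of 52 members (26.9%) and the lowest of 12 (23.1%), and over all tested genes the highest of 27.3% and the lowest of 18.3%. The HU210 libraries at 2 h and 4 h each held the lowest value of 12 members as well, and of 17.2% and 20.5% of all genes. Of the 9 members lower at 4 h, 5 had both 4 h libraries outside the range of the other 6, 3 only the DMSO library and 1 only the HU210 library. Among the 2251 genes lower at 4 h the corresponding numbers were 873, 792 and 363. Of the 3 members higher, 2 had only the DMSO library outside and 1 only the HU210 library, and of the 1014 genes higher 416 had both, 373 only the DMSO and 137 only the HU210 library. With the mean of the 4 DMSO libraries as the reference, 1 member was lower by 1.3-fold at 4 h and 0 were higher, beside 5.66% and 2.07% of all genes. That member was Vti1b, at -0.39, with Scfd1 at -0.34, Vamp4 at -0.30, Stx7 at -0.28 and Stx8 at -0.20. In the same comparison Stx7 at 6 h was 0.31, and 0 members passed 1.3-fold upward at 6 or 8 h, beside 2.71% and 1.85% of all genes.

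The changes at 4 h also went with the base composition of the transcripts. Over the 52 members the Spearman correlation between the GC content of the longest coding transcript and the log2 change was 0.55 at 4 h and -0.37 at 6 h, and over 10590 genes, which share the same libraries, it was 0.53 and -0.30. The 9 members lower at 4 h had a median GC content of 45.8%, the 3 higher 55.1% and all 52 members 50.0%. Vti1b at 50.9%, Stx8 at 51.8% and Syt17 at 54.7% were lower at 4 h without a low GC content. After a smooth trend on GC content and transcript length was subtracted at each time point, 5 members (9.62%) were lower by 1.3-fold at 4 h and 1 (1.92%) higher, beside 9.26% and 8.71% of all genes. The lower ones were Vti1b (-0.75), Syt17 (-0.54), Stx8 (-0.50), Stx7 (-0.47) and Scfd1 (-0.43), and Stxbp2 (0.43) was higher. Vamp8 was then at 0.30 and Syt5 at 0.36, both under the cutoff, and Sec22b, Vamp4, Stx12 and Syt1 lay between -0.21 and -0.14. Stx7 at 6 h was 0.41, and Vamp2 and Stxbp3 at 8 h were 0.37 and 0.30. The median of the members at 4 h turned from -0.079 to 0.058 with the trend removed. Whether base composition had a part in these differences was not tested further.

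**Figure D5:**
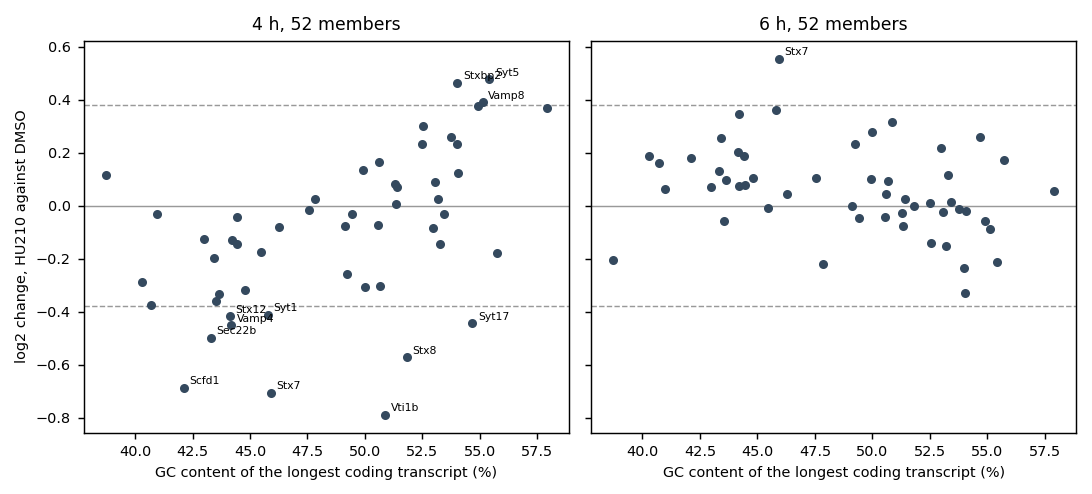
Log2 change at 4 h (left) and 6 h (right) against the GC content of the longest coding transcript for the 52 tested members. Each point is 1 gene, dashed lines mark 1.3-fold, and members past it are named. At 4 h the points rise from left to right, with Vti1b, Stx8 and Syt17 below the other members of similar GC content, and at 6 h the points fall.

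Over all 8 libraries, 3 tests were made in limma on log2(FPKM + 1), with Benjamini-Hochberg adjustment over the 11311 genes. For HU210 against DMSO over the time course with the time points as blocks, 0 members and 0% of all genes passed an FDR of 5%, and at an unadjusted p under 0.05 there were 0 members beside 1.31% of all genes. The median log2 difference of the members was -0.021 with a median standard error of 0.094. For 6 and 8 h against 2 and 4 h, 0 members and 0% of genes passed, and 2 members beside 7.21% of genes were at an unadjusted p under 0.05. These were Nsf, with means of 35.0 FPKM early and 42.0 FPKM late, and Bet1, which was lower late. The smallest adjusted p of a member was 0.62 in limma. For the difference in the HU210 effect between late and early times, 0 members and 0% of genes passed, and 5 members beside 17% of genes were at an unadjusted p under 0.05.

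In this last fit Stx7 had the smallest p of the members. Its HU210 effect was higher late than early by 0.96 ± 0.19 on the log2 scale (SE), with an adjusted p of 0.22 in limma. The fit takes 2 h with 4 h and 6 h with 8 h as repeats, so the SE is not an error between replicate libraries. Snap23, Vamp4 and Syt7 also had higher effects late, by 0.50, 0.50 and 0.36, and Stxbp2 a lower one, by a log2 difference of -0.58, with adjusted p-values of 0.23 to 0.28 in limma. Snap23 was 7.17, 8.02, 9.48 and 12.2 FPKM with HU210 and 9.23, 10.0, 8.20 and 10.5 FPKM with DMSO at 2, 4, 6 and 8 h, below DMSO at the early times and above it at the late ones. Over the 52 members 35 estimates were positive, with a median of 0.15 beside 0.12 over all genes. The exact sign-flip permutation test of a member's 4 log2 changes cannot go below 0.125 (two-sided), and the smallest p among the members was 0.25.

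Other genes of membrane fusion were taken from lists of release machinery, tethering complexes, synaptotagmin-like proteins and further SNARE-related genes. Of 64 genes 42 were tested, and at least 1.3-fold 1 was higher and 2 lower at 2 h, 3 and 3 at 4 h, 1 and 0 at 6 h and 1 and 0 at 8 h. Of all tested genes 1.49% were higher and 3.91% lower at 2 h, and 8.96% and 19.9% at 4 h. The shares were 6.38% and 1.72% at 6 h and 4.38% and 1.44% at 8 h. Esyt2, an extended synaptotagmin that tethers the ER to the plasma membrane, had a log2 change of -0.81 at 4 h, from 10.4 FPKM with DMSO to 5.48 FPKM with HU210. Use1, a SNARE of retrograde transport to the ER, was 68.6 FPKM with HU210 and 44.9 FPKM with DMSO at 4 h, a log2 change of 0.60. Vps51, a subunit of the GARP tether, had one of 0.64 at 4 h and of -0.45 at 2 h. Doc2a, a calcium-binding protein of transmitter release, was higher with HU210 at all 4 times, by 0.66, 0.34, 0.24 and 0.38, at levels of 0.933 to 3.20 FPKM. Snapin, which binds SNAP-25, had log2 changes of -0.56 at 2 h and 0.83 at 6 h. Most of these changes were smaller when averaged DMSO levels served as the reference. At 4 h Esyt2 was then at -0.39, still past 1.3-fold, while Use1 at 0.37 and Vps51 at 0.29 were not. At 2 h Vps51 was at -0.19 and Snapin at -0.10. Snapin at 6 h (0.59) stayed past 1.3-fold, and Doc2a at 2 h rose to 0.89. With the trend on base composition and length removed, Esyt2, Use1 and Vps51 at 4 h were at -0.49, 0.47 and 0.48. None of the 42 passed an FDR of 5% in the limma tests, and 1, 0 and 3 of them were at an unadjusted p under 0.05 for the time course, late against early, and the difference in HU210 effect. The shares of all genes at that unadjusted p in limma were 1.31%, 7.21% and 17% in the same order.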

How the data were processed

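Polyadenylated RNA of 8 N2A samples was sequenced, 1 library for each of HU210 and DMSO at 4 time points. According to the paper's methods and the submitters' processing notes, reads were aligned to mm9 by TopHat (version 2.0.8) running on bowtie (version 2.1.0), with samtools (version 0.1.7), and Cuffdiff gave FPKM with upper-quartile normalization and corrections for multiply mapped reads and fragment bias. The paper's materials list a stranded mRNA kit, which the sample protocols do not name. Whether counting used strand, and the versions of Cuffdiff and of the Ensembl gene models, are not given in the sources used here. The authors deposited each FPKM with 1 added, and 1 was subtracted again. The authors' columns of fold changes, p-values and q-values and their separate list of DEGs hold their own comparisons and were not used.

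Members were matched by symbol, and genes listed at all 4 time points with a mean of at least 1 FPKM were tested. Log2 changes used a pseudocount of 1, and calls a cutoff of 1.3-fold. Tests across genes used limma 3.58.1 in R 4.3.3 with an intensity trend, two-sided, at an FDR of 5%. Other steps ran in Python 3.11.15 and were checked on simulated data. GC content, length and positions came from GENCODE vM1 on mm9, which covered 10590 tested genes and all 52 tested members. The trend was a loess of span 0.3 and degree 1. Full values were to be given for members past 1.5-fold once or 1.3-fold at 2 times, called by limma, or the most abundant of their group. Alternatives were a pseudocount of 0.1, no filter, median centring, the mean DMSO reference, a 1.5-fold cutoff, the trend removed, no block or covariate, no intensity trend, and leaving out each time point. The members and lists were chosen with earlier results of these data known. Proteomic and knockdown data were not analysed here. Some symbols of these families were not analysed here. A pair of members entered the counts, sums and medians but is not reported here by name or in the plots of levels and changes.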

Additional observations from a re-analysis of the deposited data

Results flagged for a closer look

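Stx7 was the only member past 1.3-fold in opposite directions at 2 time points, with a log2 change of -0.71 at 4 h and 0.56 at 6 h. Each of these values compares 1 library with another, so the difference between the 2 time points was not tested. The pooled difference of the HU210 effect between 6 and 8 h and 2 and 4 h was 0.96 ± 0.19 (SE) on the log2 scale, with an adjusted p of 0.22 in limma and of 0.22 to 0.42 under the alternatives. Its SE takes different time points as repeats.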

How the results depend on the processing

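At 1.3-fold and a pseudocount of 0.1, 1 member was lower at 2 h, 5 were higher at 4 h and 1 was lower at 8 h. With each library centred on its median 6 members were higher at 4 h and 5 lower, 1 was lower at 6 h, and at 8 h 0 were higher and 1 lower. With the mean DMSO reference at 2 h 1 was higher and 2 were lower, at 4 h 0 were higher and 1 lower, and at 6 h and 8 h 0 were higher. Without the trend on base composition and length, 1 was higher at 4 h with 5 lower, and 0 were higher at 8 h. At a cutoff of 1.5-fold 0 were higher at 4 h with 3 lower, beside 313 and 984 of the 11311 tested genes. At that cutoff 0 were higher at 6 h or 8 h, beside 196 and 132 of all genes. Shares over all genes were not computed for the pseudocount of 0.1, the mean DMSO reference at 2 h, or the trend removed at 8 h. No other count moved by over 1.5 times. Of the 15 single changes past 1.3-fold, none turned its sign. Of these, 9 passed with centring, 7 with the trend removed and 1 with the mean DMSO reference. All 15 passed with a pseudocount of 0.1 and without the filter, but these settings could not fail. A smaller pseudocount can only enlarge a change, and dropping the filter leaves it as it was. The limma tests called 0 members under each alternative run. The samples share no replicate numbers beyond 1, and the HU210 and DMSO libraries were paired by time point. The trend on base composition was removed in limma only for HU210 against DMSO over the time course, the interaction test was not run with a time point left out, and limma without the trend for the late against early test was added after seeing the data. Reads per gene were not analysed here, and no counting error is given for genes near the limit of 1 FPKM.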
